A study of Homo sapiens with 1 sample.

Results

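To describe how accessible chromatin was spread along chromosome 9 in a kidney cancer line, the ATAC-seq peaks of its 2 arms were compared, and the interval from 19 to 26 Mb of the short arm, called 9p21 here, was examined in detail. A peak whose summit lay below 39 Mb was assigned to the short arm and one whose summit lay above 66 Mb to the long arm. This gave 4348 peaks, 1023 on the short arm and 3325 on the long arm, of 88615 on the 24 primary chromosomes. Within 9p21 there were 158 peaks. ATAC-seq uses the Tn5 transposase to cut and tag open DNA. The cells were 786-O, an established human line of clear cell renal cell carcinoma (ccRCC), carrying an empty vector as the control of a DPF3a overexpression experiment. The names given to the peaks hold a wild-type tag instead, so the genotype rests on the sample's label. The peak list came from 1 library of 1 line without a replicate, so no p-value is given, and every interval below covers counting error only. Intervals are at the 95% level, except that a ratio of medians or 90th percentiles is given with the lowest and highest value that the 95% intervals of its parts allow.

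The short arm of chromosome 9 carries one of the best known tumor suppressor loci. CDKN2A encodes p16 and p14ARF, which restrain the cell cycle through RB and p53, and its neighbour CDKN2B encodes the related inhibitor p15. MTAP, an enzyme of methionine salvage, and the type I interferon genes lie beside them, and DNA of this locus is lost in many tumors and tumor lines. Loss of the short arm is also a known event in ccRCC. A peak list holds only places where enough uniquely placed fragments piled up. A region without peaks can be closed chromatin, missing DNA or sequence to which few reads map uniquely. Mappability is given below, but closed chromatin and missing DNA cannot be told apart here.

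The sequences around the CDKN2A locus are shown first because MTAP had a promoter peak and its neighbours CDKN2A and CDKN2B had none. The lines below give 250 bases before each start site as RefSeq places it on GRCh38.p14, written in the direction of transcription. Capitals mark GGGCGG or its reverse complement CCGCCC, the core of an SP family site, which 42.6% of 35116 RefSeq promoter windows of this length held on either strand. CDKN2A has an inner start for p16 and an outer start for p14ARF.
MTAP, chr9:21802386-21802635, plus strand: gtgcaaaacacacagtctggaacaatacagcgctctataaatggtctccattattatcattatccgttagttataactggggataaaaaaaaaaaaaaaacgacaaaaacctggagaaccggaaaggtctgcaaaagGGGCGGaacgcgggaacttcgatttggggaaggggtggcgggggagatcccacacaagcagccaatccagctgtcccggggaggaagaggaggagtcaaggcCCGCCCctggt
CDKN2A, inner start, chr9:21974858-21975107, minus strand: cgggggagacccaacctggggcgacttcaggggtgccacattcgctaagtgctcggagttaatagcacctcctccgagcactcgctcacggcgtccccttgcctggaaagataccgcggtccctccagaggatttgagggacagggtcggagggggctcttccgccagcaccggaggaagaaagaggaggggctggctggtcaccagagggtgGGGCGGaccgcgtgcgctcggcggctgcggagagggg
CDKN2A, outer start, chr9:21995325-21995574, minus strand: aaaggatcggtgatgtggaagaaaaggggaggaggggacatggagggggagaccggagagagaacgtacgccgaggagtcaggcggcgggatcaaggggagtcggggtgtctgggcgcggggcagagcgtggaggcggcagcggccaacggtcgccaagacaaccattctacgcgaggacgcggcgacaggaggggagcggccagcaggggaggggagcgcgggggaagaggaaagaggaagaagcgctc
CDKN2B, chr9:22009306-22009555, minus strand: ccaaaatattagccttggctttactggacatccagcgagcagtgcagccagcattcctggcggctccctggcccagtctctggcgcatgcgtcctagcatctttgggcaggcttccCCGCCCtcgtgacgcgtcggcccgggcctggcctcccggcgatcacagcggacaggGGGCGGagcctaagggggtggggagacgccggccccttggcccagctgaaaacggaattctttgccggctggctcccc
DMRTA1, chr9:22446574-22446823, plus strand: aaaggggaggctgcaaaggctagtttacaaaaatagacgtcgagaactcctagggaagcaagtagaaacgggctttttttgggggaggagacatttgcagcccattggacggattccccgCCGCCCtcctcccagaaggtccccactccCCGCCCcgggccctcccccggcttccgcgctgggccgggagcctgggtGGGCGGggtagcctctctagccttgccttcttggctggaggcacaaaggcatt
MTAP held 2 such matches and 11 CpGs. CDKN2A held 1 match and 20 CpGs before its inner start, and no match and 24 CpGs before its outer start. CDKN2B held 2 matches and 18 CpGs, and DMRTA1 held 3 matches and 13 CpGs. The windows of CDKN2A, CDKN2B and DMRTA1 thus each held more CpGs than that of MTAP.

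The next lines give hg38 sequence, from 50 bases before to 50 bases after the summit, of peaks that the results below turn on: the peak at the right edge of the stretch without peaks around CDKN2A, the highest peaks of 9p21 next to it and beyond it, the only peak in a desert farther right, and the highest peak of each arm. They are written on the plus strand, and capitals mark the AP-1 site TGAGTCA or its reverse complement TGACTCA.
Right edge of the CDKN2A stretch, chr9:22148287-22148387, plus strand: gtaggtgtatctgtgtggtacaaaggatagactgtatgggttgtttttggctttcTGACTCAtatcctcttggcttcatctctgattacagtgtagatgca
MTAP intron, chr9:21836586-21836686, plus strand: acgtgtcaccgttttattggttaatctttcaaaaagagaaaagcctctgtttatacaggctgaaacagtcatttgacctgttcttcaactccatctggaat
TUSC1 promoter, chr9:25678464-25678564, plus strand: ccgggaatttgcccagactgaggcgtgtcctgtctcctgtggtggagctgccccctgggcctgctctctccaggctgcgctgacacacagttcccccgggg
Lone peak, chr9:24464487-24464587, plus strand: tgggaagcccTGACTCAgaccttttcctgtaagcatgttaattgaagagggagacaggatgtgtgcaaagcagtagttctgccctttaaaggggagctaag
Highest peak of the short arm, chr9:2570736-2570836, plus strand: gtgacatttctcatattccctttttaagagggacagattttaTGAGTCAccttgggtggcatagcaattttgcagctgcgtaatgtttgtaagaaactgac
Highest peak of the long arm, chr9:101398705-101398805, plus strand: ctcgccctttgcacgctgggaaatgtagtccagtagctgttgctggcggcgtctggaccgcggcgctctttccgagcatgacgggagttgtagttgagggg
An AP-1 match was present at the right edge of the CDKN2A stretch, at the lone peak and at the highest peak of the short arm, and at none of the other 3 summits. The summits shown were picked for their place in the results, so how many of them held a match says nothing about a share. Over all summits the share was 16.5% in 9p21 and 15.7% on the other autosomes.

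As a check of the label, 5 of 6 renal epithelial and ccRCC marker genes had a promoter peak, against a background of 61.4% of all protein-coding genes, so the count by itself says little about the cell type. Their folds were 47.9 at VIM, the mesenchymal filament gene that ccRCC expresses, 31.9 at PAX8, the renal lineage factor, 25.8 at CDH2, 22.7 at PAX2 and 8.24 at KRT18, and CA9 had no promoter peak. The fold is the pileup of fragments at the summit, plus 1, over the genome-wide background pileup, plus 1. Every fold of the list followed from a whole pileup of 9 to 300 fragments and a background of 0.941, and a pileup of 9 equals a fold of 5.15, the lowest listed.

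The long arm was densely covered and the short arm was not. There were 26.2 peaks per sequenced Mb on the short arm (24.7 to 27.9) and 46.3 on the long arm (44.7 to 47.9), a ratio of 0.567 (0.528 to 0.608). The other 21 autosomes together had 31.1 peaks per Mb and as whole chromosomes ranged from 19.5 on chromosome 13 to 41.3 on chromosome 19. The long arm thus exceeded each of the 21 other autosomes taken whole, and the short arm exceeded 5 of them. This ranking is not like for like. The arms leave out the sequence around the centromere, which had 2.10 peaks per Mb on chromosome 9, and the other autosomes keep theirs. Whole chromosome 9 had 35.9 peaks per Mb, below chromosomes 1, 17, 19, 20 and 22. Arms of other chromosomes were not computed. Peaks covered 1.74% of the sequenced bases of the short arm and 3.43% of the long arm, compared with 2.17% elsewhere on autosomes. Neighbouring summits were a median of 12.7 kb apart on the short arm and 9.31 kb on the long arm.

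The arms also differ in sequence and gene content, and part of the gap moved with it. GC content was 38.9% on the short arm and 42.9% on the long arm, and there were 5.31 and 7.75 protein-coding genes per Mb. Among 2 Mb bins of 38 to 42% GC, density was 30.7 per Mb on the short arm (10 bins) and 36.4 on the long arm (16 bins), a ratio of 0.844 (0.764 to 0.932). Among bins of at least 42% GC it was 48.8 (3 bins) and 56.8 (18 bins), a ratio of 0.859 (0.749 to 0.981). The short arm remained lower in both classes, by much less than over whole arms. Below 38% GC the short arm had 7 bins with 11.8 peaks per Mb and the long arm 2 bins with 33.2, the latter set by unlike bins of 6 and 60.5 per Mb. The part of GC content in the difference was not tested further.

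By 2 Mb bins with at least 1 sequenced Mb the short arm was uneven. Its 20 bins ran from 4 to 52.0 peaks per Mb with a median of 25.2, and the 36 bins of the long arm ran from 2.32 to 80.5 with a median of 45.8, while the last 0.335 sequenced Mb of the long arm, too short for this, held no peak. Densities overlapped between the arms over most of that range. Over 40 peaks per Mb were found in 5 short-arm and 24 long-arm bins. The poorest short-arm bin was 10 to 12 Mb, with 8 peaks, followed by 24 to 26 Mb within 9p21, with 10, and 30 to 32 Mb, with 13. The richest was 34 to 36 Mb, with 104 peaks and 58 protein-coding genes. On the long arm the poorest bin that could be mapped was 102 to 104 Mb, with 12 peaks, and the richest was 136 to 138 Mb near the end of the arm, with 161 peaks and 80 protein-coding genes. The bin from 66 to 68 Mb had 4 peaks, but only 19% of 150-base tiles cut from it mapped back uniquely. Across bins, which share 1 library, density ranked with GC content (Spearman's rho 0.85 over 20 short-arm bins and 0.64 over 36 long-arm bins).

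**Figure D1:**
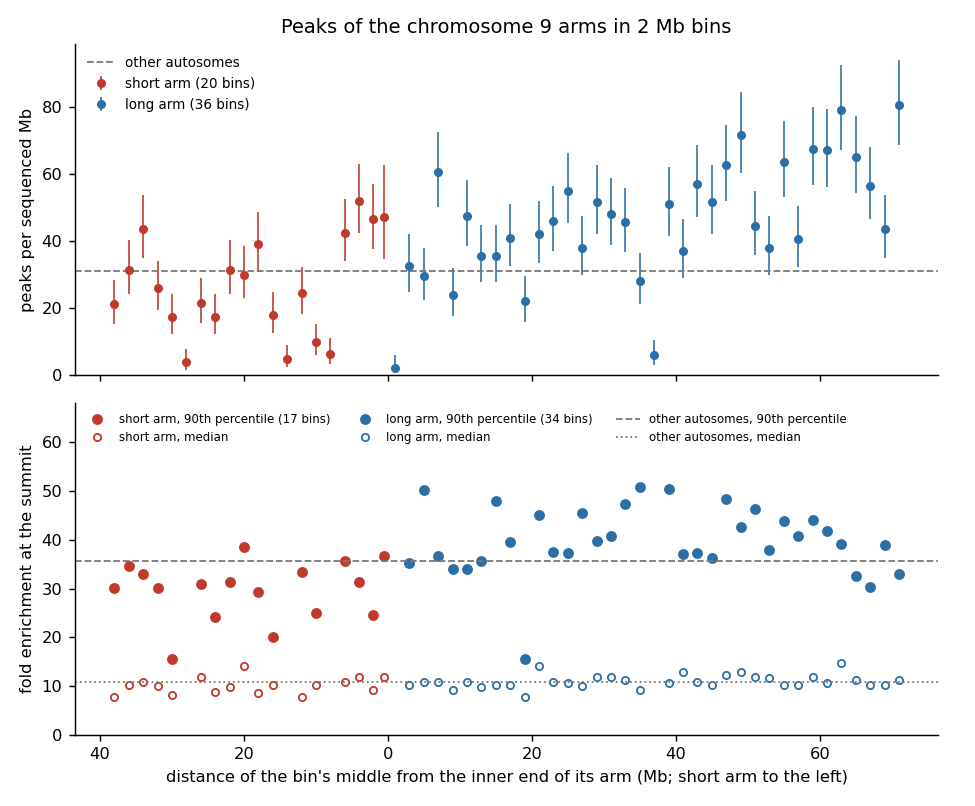
Peaks per sequenced Mb (upper panel, bars are exact Poisson 95% intervals) and the median and 90th percentile of fold (lower panel, bins with at least 20 peaks) in 2 Mb bins, against distance in Mb from the inner end of each arm, short arm to the left. The short arm stays at or below 52.0 peaks per Mb and dips to 4, whereas 24 of 36 long-arm bins exceed 40; medians of fold differ little and 90th percentiles are mostly higher on the long arm.

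Peak heights differed mainly among the highest peaks. The median fold was 9.79 on the short arm (9.28 to 10.3) and 10.8 on the long arm (10.8 to 11.3), and the lower quartile was 6.70 on both. The 90th percentile was 31.4 (30.4 to 33.0) and 41.5 (39.2 to 43.3), a ratio of 0.757 (0.702 to 0.842), and it was 35.6 on the other autosomes. A fold over 50 was reached by 19 short-arm peaks, or 1.86% (1.12 to 2.89), and by 203 long-arm peaks, or 6.11% (5.32 to 6.97), compared with 3.97% elsewhere. No short-arm peak exceeded 69.0, and the highest long-arm peak reached 107.7.

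This gap in height was present in each class of peak and of sequence examined. At promoters the 90th percentile was 42.5 on the short arm (38.1 to 48.4) and 57.7 on the long arm (54.1 to 60.8), and outside promoters it was 27 and 35.0. Within bins of 38 to 42% GC the ratio of the arms was 0.805 (0.674 to 0.959), and within bins of at least 42% GC it was 0.753 (0.647 to 0.961). Of the bins with at least 20 peaks, 2 of 17 short-arm and 26 of 34 long-arm bins had a 90th percentile over 36. Among whole autosomes the 90th percentile ran from 26.3 on chromosome 14 to 45.3 on chromosome 7, so that 7 of 21 lay below the short arm and 19 of 21 below the long arm. DNA copy number was not measured, so lower accessibility and fewer copies of a region cannot be told apart.

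**Figure D2:**
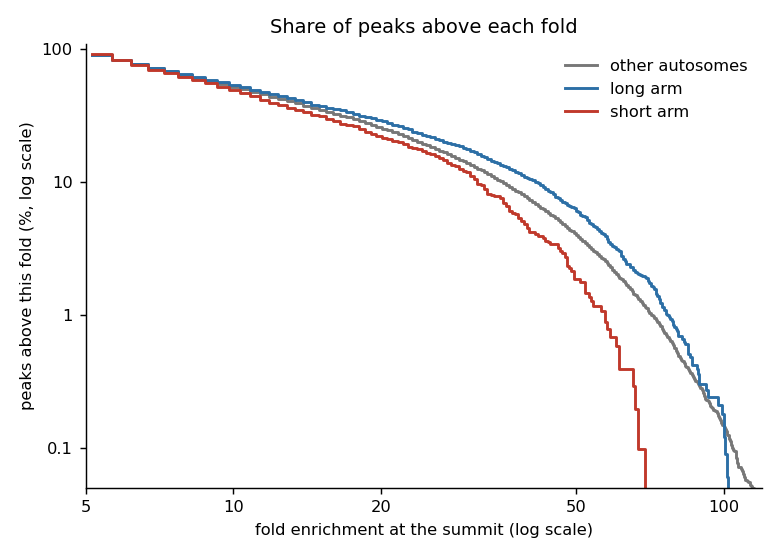
Share of peaks (%, log scale) above each fold enrichment (log scale) for the short arm, the long arm and the other autosomes. The 3 curves start together at low fold and part toward high fold, with 1.86% of short-arm, 6.11% of long-arm and 3.97% of other peaks above a fold of 50.

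The highest peaks of each arm lay mostly at promoters. On the short arm the first was a peak at the start of the antisense RNA gene VLDLR-AS1 (chr9:2570478-2571451), with a fold of 69.0 (57.9 to 81.7). SMARCA2, which encodes the SWI/SNF ATPase BRM, followed with 67.0, then BNC2, a zinc finger protein, with 66, an intron of SHB, an adaptor of tyrosine kinase receptors, with 65.4, and RCL1, a ribosome biogenesis factor, with 61.3. On the long arm the first was shared by ZNF189, a zinc finger gene, and MRPL50, a mitochondrial ribosomal protein gene (chr9:101397761-101400180), with a fold of 107.7 (93.6 to 123.3). MSANTD3 had 102.0, an exon of SUSD1 101.5, TLE4, a Groucho-type corepressor, 100.5, and the promoter between ABHD17B and C9orf85 99.97.

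Over all listed peaks the shares of summits by kind of site were close between the arms. Promoters, taken from 1 kb upstream to 100 bp downstream of any start site, held 176 short-arm summits, or 17.2% (14.9 to 19.7), and 547 long-arm summits, or 16.5% (15.2 to 17.8), compared with 19.5% on the other autosomes. Promoter sequence made up 3.19% and 4.38% of the bases of the arms, so promoters held 5.39 and 3.76 times their share of bases. Among the stronger peaks, with a score above 200, the promoter shares parted to 31.1% on the short arm and 24.1% on the long arm. Introns held 51.5% and 47.8% of the summits and intergenic sequence 26.7% and 30.9%. Motif content around the summits (50 bases to each side, both strands) was also close. The AP-1 site TGAGTCA or TGACTCA was found at 15.0% of short-arm summits (12.8 to 17.3), 15.6% of long-arm summits (14.4 to 16.9) and 15.7% of those on other autosomes. A core of the CTCF motif was at 3.62%, 3.70% and 3.63%, GGGCGG at 8.41%, 9.02% and 8.42%, the TEAD core GGAATG at 10.3%, 8.78% and 9.45%, and the ETS core CCGGAAG at 2.05%, 1.44% and 1.52%. For each motif the intervals of the arms overlapped.

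By gene, 124 of 207 protein-coding genes of the short arm had a promoter peak, or 59.9% (52.9 to 66.6), and 386 of 557 of the long arm, or 69.3% (65.3 to 73.1), against a background of 61.4% of 20033 genes on the primary chromosomes. Promoters were then split by base composition, since CpG-rich promoters are commonly open. Among CpG-rich promoters the counts were 51 of 64 (79.7%; 67.8 to 88.7) on the short arm and 232 of 258 (89.9%; 85.6 to 93.3) on the long arm, against a background of 79.9%. Among the other promoters the shares were 51.0% and 51.5%. The short arm was thus near the background in both classes, and the long arm was above it in CpG-rich promoters, which made up 46.3% of its genes compared with 30.9% on the short arm. For lncRNA genes the shares were 20.6% on the short arm (14.9 to 27.2) and 26.7% on the long arm (22.4 to 31.3), against 21.9% on the other autosomes. The short arm was thus near that share here too.

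The named genes of the short arm outside 9p21 had promoter peaks in 10 of 15 cases (66.7%), close to the background of 61.4% and to the 59.9% of the short arm, with folds from 15.5 to 67.0 and a median of 34.3. SMARCA2 was the highest. JAK2, the kinase of cytokine receptors, and CD274, which encodes PD-L1, lie near each other and both had a fold of 40.2 (31.8 to 50.1), and PDCD1LG2, which encodes PD-L2, had 35.6. KDM4C, a histone demethylase, had 39.7, KANK1, a regulator of actin, 33.0, and VCP, a segregase ATPase, 30.9. Lower folds were found at PTPRD, a receptor phosphatase, and NFIB, a nuclear factor I gene, both at alternative starts with 16.0, and at MELK, a mitotic kinase, with 15.5.

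No promoter peak was found at VLDLR, B4GALT1, TEK, CA9 and PAX5. For 2 of these the nearest summit was just beyond the promoter window: B4GALT1, a galactosyltransferase, had a peak of fold 25.8 with its summit 134 bp from the start, and VLDLR, a lipoprotein receptor, had one of fold 30.9 at 1243 bp. The nearest summits to TEK, the angiopoietin receptor of endothelium, to CA9, the carbonic anhydrase induced by hypoxia, and to PAX5, a B cell factor, were 8395, 4283 and 5097 bp away.

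On the long arm 19 of 23 named genes had a promoter peak (82.6%), where the background was 61.4% and the share over the long arm 69.3%, with folds from 5.67 to 63.4 and a median of 22.2. PSAT1, an enzyme of serine synthesis, had 63.4, ABL1, a tyrosine kinase, 52.6, and TGFBR1, the type I TGF-β receptor, 50.5 (41.0 to 61.5). KLF4, a Krüppel-like factor, had 47.4, XPA, a DNA repair protein, 40.7, FANCC, of the Fanconi pathway, 38.1, and TNC, an extracellular matrix protein, 35.0. Those of ABL1 and FANCC lay at alternative starts. Folds between 9.79 and 23.7 were measured at TSC1, CDK9, NOTCH1, ANXA1, COL27A1, GSN, ABCA1, PTCH1, RXRA, TLR4 and SYK. The peaks of TSC1 and ABCA1 lay at alternative starts 42501 and 96297 bp from the canonical start. For some of these genes the promoter window decided the fold, and within 2.5 kb to either side of a start the highest fold was 52.6 at PTCH1, 56.2 at ABCA1, 41.2 at GSN and 36.1 at RXRA. The lowest was FBP1, the gluconeogenic enzyme whose loss is known in ccRCC, with 5.67 (2.99 to 9.99), close to the lowest fold listed. Its interval overlapped those of ABCA1, PTCH1, RXRA, TLR4 and SYK, the next lowest genes with a promoter peak. The 7 genes listed before TSC1 were the highest of the list, so that their intervals did not overlap it is no separate result.

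ENG, NR4A3, COL5A1 and COL15A1 had no promoter peak on the long arm. NR4A3, an orphan nuclear receptor, had a peak of fold 59.8 with its summit 1724 bp from a start site. COL15A1, a basement membrane collagen, had 14 peaks in its body, the highest with a fold of 99.97. ENG, a TGF-β co-receptor of endothelium, had its nearest summit 6158 bp away. The median fold of all promoter peaks was 22.7 on the long arm, 20.1 on the short arm and 19.6 on the other autosomes.

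**Figure D3:**
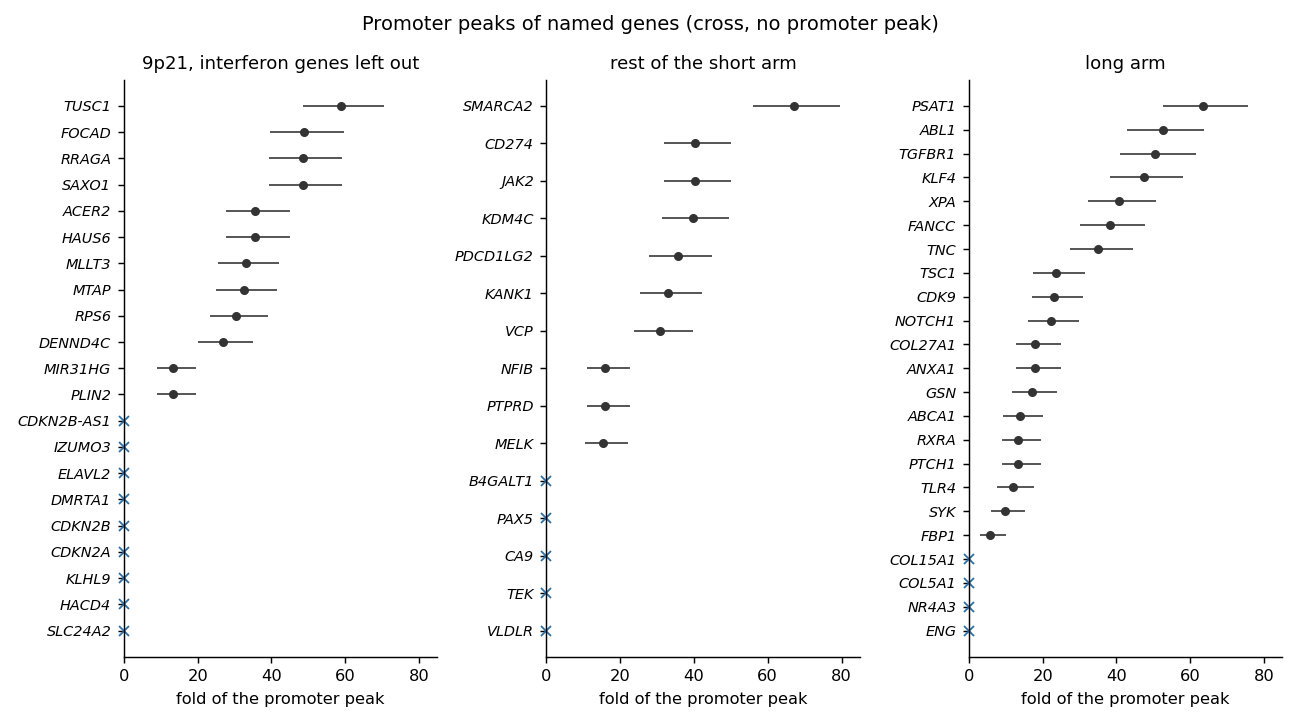
Fold enrichment of the highest promoter peak of each named gene with its exact Poisson 95% interval, for 9p21 without the interferon genes (left), the rest of the short arm (middle) and the long arm (right); a cross at 0 marks a gene without a promoter peak. SMARCA2 reaches 67.0 and PSAT1 63.4, FBP1 has 5.67, and CDKN2A, CDKN2B and CDKN2B-AS1 have none.

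9p21 as a whole was close in density to the whole short arm, of which it is a part, and its peaks lay mostly on its left side. It held 158 peaks, or 22.6 per Mb (19.2 to 26.4), where the short arm had 26.2, the other autosomes 31.1 and their 2 Mb bins an interquartile range of 17.5 to 43, and its folds had a median of 9.79 and a maximum of 58.7. By Mb from 19 Mb on, the counts were 34, 28, 50, 25, 11, 1 and 9. The interval was divided at its midpoint after these counts were seen: the left 3.5 Mb had 134 peaks, or 38.3 per Mb (32.1 to 45.3), and the right 3.5 Mb had 24, or 6.86 per Mb (4.39 to 10.2). Of tiled reads, 98.1% mapped back uniquely over 9p21. Intergenic summits made up 48.7% (40.7 to 56.8), compared with 26.7% on the whole short arm.

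Only 11 of 35 protein-coding genes of 9p21 had a promoter peak, or 31.4% (16.9 to 49.3), against the background of 61.4%. Of the genes without one, 16 were interferon genes. Without these the count was 11 of 19, or 57.9%, near that background, with folds from 13.4 to 58.7 and a median of 35.6. CpG-rich promoters had a peak in 5 of 7 cases, or 71.4% (29.0 to 96.3), against a background of 79.9% of CpG-rich promoters.

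Most promoter peaks of 9p21 lay in its left side. RRAGA, a Rag GTPase of the mTORC1 pathway, and SAXO1, a microtubule protein gene, shared a peak of fold 48.4 (39.2 to 59.2). HAUS6, of the augmin complex, and ACER2, a ceramidase, both had 35.6, RPS6, the ribosomal protein, 30.4, and DENND4C, a Rab exchange factor, 26.8. PLIN2, the coat protein of the lipid droplets that fill clear cells, had a lower fold of 13.4 (8.85 to 19.5), and a stronger intergenic peak of 57.7 lay 12573 bp from its nearest start. MLLT3, of the super elongation complex, had 33.0 and FOCAD, which encodes focadhesin, 49.0. A group of 3 intergenic peaks more than 200 kb from the nearest protein-coding start, that of SLC24A2, reached folds of 42.8, 46.4 and 56.2. TUSC1, near the right end, had the highest fold of 9p21 with 58.7 (48.5 to 70.5), at the far side of the longest desert.

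Between FOCAD and MTAP lay the type I interferon cluster, whose genes are induced by infection. Its 16 genes spanned 405 kb (chr9:21077104-21482313), and 0 of 16 had a promoter peak. The nearest summits were 6951 bp from IFNA8 to 65752 bp from IFNA4. The cluster was not empty, as it held 13 peaks with folds from 5.15 to 24.7 and a median of 7.21, and its longest interval without a peak was 142 kb. The highest of these peaks belonged to KLHL9, an adaptor of cullin 3 ligases inside the cluster, with a summit 136 bp inside the gene and outside the promoter window. Tiled reads mapped back uniquely at 97.8% of positions there.

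Peaks continued from the interferon cluster through MTAP and stopped before CDKN2A. MIR31HG, the host gene of miR-31, overlaps the right end of the cluster and had a promoter fold of 13.4 and 10 peaks in its body, some of which are among those counted for the cluster. MTAP had a promoter peak of fold 32.5 (25 to 41.5) and 11 peaks in its body, among them one in an intron with a fold of 57.2 (47.1 to 68.8). No peak lay in the last 33.0 kb of the gene.

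The stretch without a peak ran over 243 kb (chr9:21904652-22147866) from a later intron of MTAP past CDKN2A, CDKN2B and the antisense RNA gene CDKN2B-AS1. Its left edge was a weak peak of fold 8.24 (4.84 to 13.3), and it ended at an intergenic peak (chr9:22147867-22148566) of fold 10.3 (6.41 to 15.8). The nearest summits to a start of CDKN2B-AS1, CDKN2A and CDKN2B were 29369, 66018 and 101822 bp away. Since a stretch was defined by the absence of peaks, its count of 0 is given as a description. A window of the same length to its left held 22 peaks (90.5 per Mb, highest fold 57.2), and one to its right held 11 (45.2 per Mb, highest fold 27.3). The stretch did not lack CpGs or mappable sequence. It had 2287 CpGs, compared with 1737 in the left and 1420 in the right window, and 98.3% of tiles mapped back uniquely, compared with 98.0% and 96.4%.

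Stretches of this length were common, and fewer of them held a CpG-rich promoter. Of 1804 autosomal stretches of at least 200 kb without a peak, 1256 (69.6%) were longer. CDKN2A has a CpG-rich promoter, and a CpG-rich protein-coding promoter was found in 189 of 1730 such stretches on the other autosomes (10.9%), in 2 of 36 on the short arm and in 2 of 26 on the long arm. From the side of the genes, 344 of 6893 autosomal genes with a CpG-rich promoter (4.99%) lay in such a stretch. Mappability was measured on chromosome 9 alone, so counts on other autosomes can include stretches where few reads map uniquely. They are not matched to the CDKN2A stretch in this respect. When only peaks with a score above 100 were used, the stretch kept both edges, and with a score above 200 it widened to 334 kb.

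**Figure D4:**
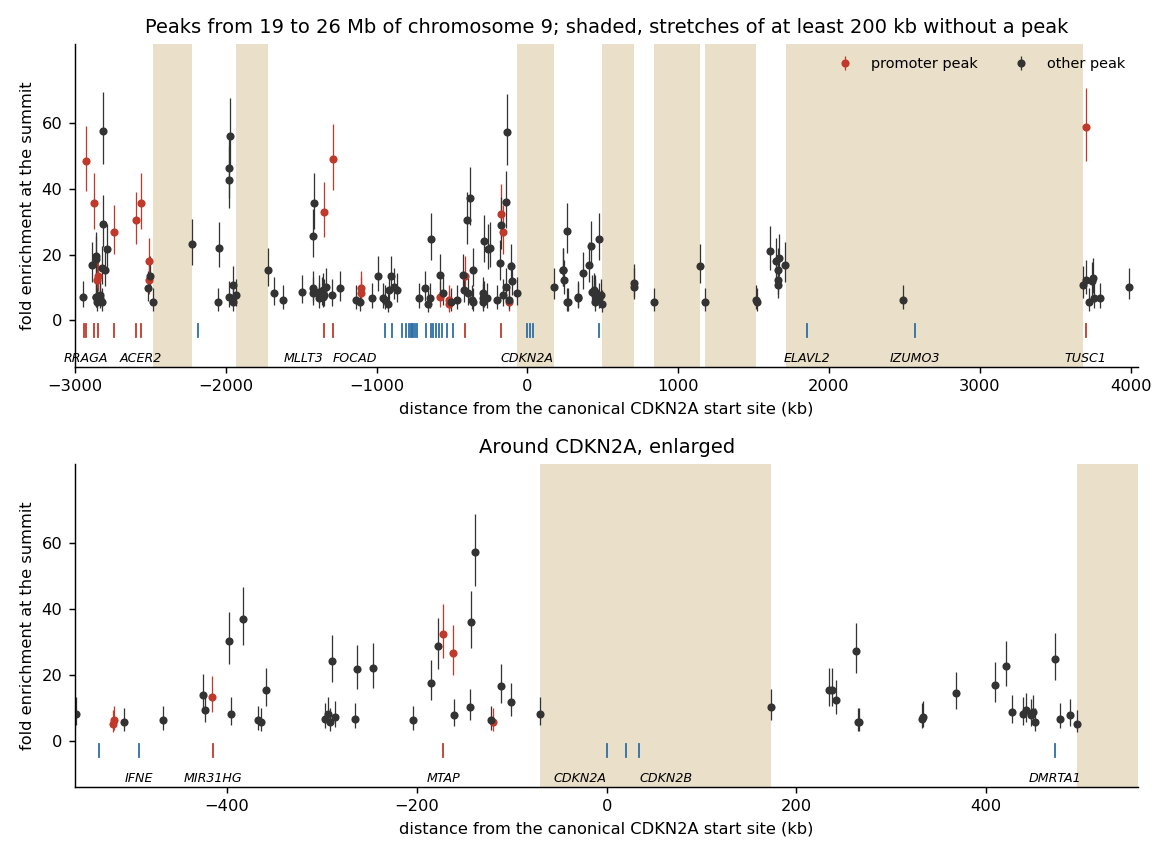
Fold enrichment at the summit of each of the 158 peaks of 9p21 with its exact Poisson 95% interval, against distance in kb from the canonical CDKN2A start (upper panel, the whole interval; lower panel, enlarged). Shaded bands are the 8 stretches of at least 200 kb without a peak; ticks below 0 mark starts of named genes, red with and blue without a promoter peak. Peaks crowd to the left up to MTAP, none lies over CDKN2A and CDKN2B, and few lie to the right of DMRTA1 before TUSC1.

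In all, 8 stretches of at least 200 kb without a peak took up 50.4% of 9p21, compared with 36.4% of the short arm, 12.1% of the long arm and 27.3% of the other autosomes. The other autosomes were taken whole, with their centromeric sequence, and not filtered for mappability, so their share is not matched to the arms. Of the 8, 5 contained no protein-coding start. On the left side they were 255 kb over the body of SLC24A2, a sodium, calcium and potassium exchanger gene of neurons and cones, and 208 kb farther to the right. DMRTA1, a DM domain gene, had a peak of fold 24.7 that covered its start, with the summit 544 bp inside the gene. Past DMRTA1, stretches of 213, 300 and 339 kb followed without a protein-coding start.

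The 2 longest were neighbours. One of 778 kb (chr9:23686690-24464370) held ELAVL2, an RNA binding protein gene of neurons, and one of 1194 kb (chr9:24464717-25658545) held IZUMO3, a sperm protein gene. Only the lone peak shown above, of fold 6.18 (3.34 to 10.7), divided them. It was lost when a score above 100 was required, and the joint desert was then 1972 kb long. Of 1804 autosomal stretches, not filtered for mappability, 64 were longer than the 1194 kb stretch. Its GC content was 35.0% and 98.3% of its tiles mapped back uniquely.

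Elsewhere on the short arm the longest stretch was 1453 kb (chr9:10876241-12328970), held no protein-coding gene and was mappable at 98.6% of tiles. There were 9.23 such stretches per 10 Mb on the short arm, 3.62 on the long arm and 6.57 on the other autosomes, again taken whole. Some long-arm stretches lay where few reads of this length map uniquely. In the 1431 kb from 67059524 to 68490239, which hold ANKRD20A1, ZNG1C, FOXD4L3 and PGM5, 25.1% of tiles mapped uniquely. In the 454 kb from 100933971 to 101387817, over PLPPR1, BAAT and part of MRPL50, 7.27% did, and this stretch ended just before the highest peak of the arm. In all, 2 of 36 short-arm and 4 of 26 long-arm stretches had less than 90% of tiles mapped. A mappable long-arm desert of 577 kb (chr9:102055172-102631765) held no protein-coding gene.

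**Figure D5:**
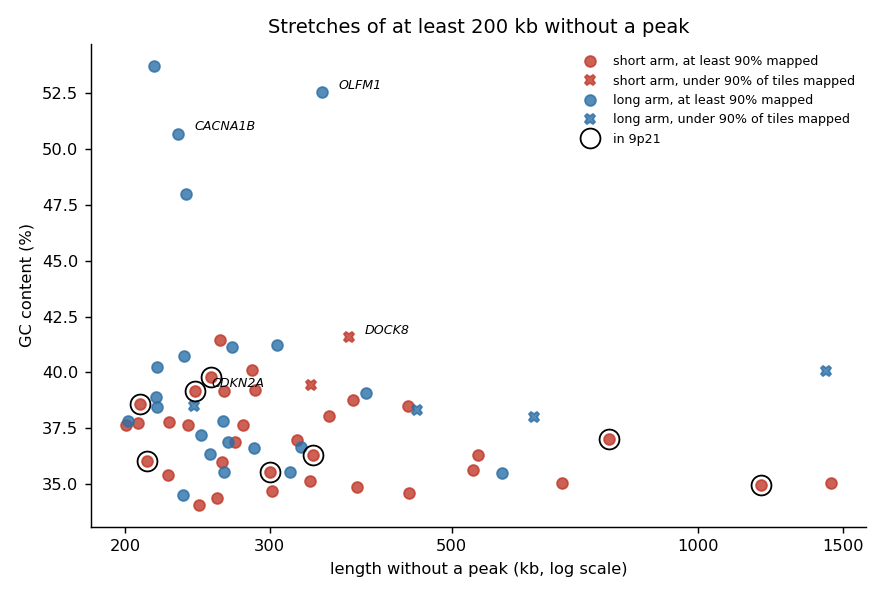
Length (kb, log scale) against GC content (%) of the 36 short-arm and 26 long-arm stretches of at least 200 kb without a peak; crosses have under 90% of tiles mapped back uniquely, rings mark those of 9p21 and names mark genes with a CpG-rich promoter. The stretch of CDKN2A, at 243 kb and 39.2% GC, is 1 of 4 with a CpG-rich protein-coding promoter, beside those of DOCK8, OLFM1 and CACNA1B.

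Around the limits of the arms the peaks were weak. The last short-arm peak (chr9:38713517-38713757) had a fold of 7.21 and the first one past 39 Mb (chr9:39030620-39030819) 5.15, while the last one before 66 Mb (chr9:64369135-64369334) had 5.15 and the first long-arm peak (chr9:66269922-66270214) 9.79.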

How the data were processed

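The data were the ATAC-seq peaks of 1 library of 786-O cells with an empty vector. By their methods and processing notes, the authors used fastp for trimming and Bowtie2 (2.3.4.3) for alignment to hg38, removed mitochondrial reads, duplicates and reads of mapping quality under 30, and called peaks with MACS2 (2.2.6) against a genome-wide background. A shift for the Tn5 cutting position is not stated. The deposited ratio is the fold enrichment at the summit. Each deposited score equals the −log10 q-value multiplied by 10, with 52 as its lowest value, and the deposited −log10 p-value follows from the same pileup. The total read number is unknown, and the pileup at the summit (9 to 300, whole to within 1.69e-05) is the depth behind a peak. Low peaks are therefore imprecise, as 37.5% of short-arm and 34.6% of long-arm peaks had a pileup under 15.

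Arms, 2 Mb bins, classes and stretches were computed with Python 3.11.15 (numpy 2.4.6, pandas 2.3.3, scipy 1.17.1, pysam 0.24.0, matplotlib 3.10.9), hg38 and GENCODE release 44. Density was counted per sequenced base. Intervals are exact Poisson for counts and folds, exact (Clopper-Pearson) for shares, conditional binomial for density ratios and from order statistics for quantiles. A ratio of quantiles has the bounds of its parts. A stretch ran from peak edge to peak edge. A promoter was CpG-rich at 55% GC or more and an observed to expected CpG ratio of 0.6 or more, from 1000 bp upstream to 100 bp downstream of the canonical start. Mappability was the share of 150-base tiles, cut every 200 bases of chromosome 9 (608923 tiles), that minimap2 2.31 placed back at quality 30 or more. RefSeq promoter windows were cut to the 250 bases before the start. The functions were tested on simulated data.

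The members and gene lists were chosen with earlier results of these data known. Named were every protein-coding gene of 9p21, MIR31HG and CDKN2B-AS1, 15 genes of the short arm and 23 of the long arm, the 5 highest peaks of each arm and of 9p21, the stretches of at least 200 kb in 9p21 and the extreme bins. The GC classes of bins, the CpG-rich class, the windows beside the CDKN2A stretch and the division of 9p21 were added after the data were seen. Another marker gene and a sequence are not reported here, and the marker count leaves that gene out. With 1 library no test between samples was possible. Alternatives were other score minimums, arm limits, promoter windows, start sites, bin and stretch sizes.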

Additional observations from a re-analysis of the deposited data

Results flagged for a closer look

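Outside the compared arms, 23 peaks lay between 39 and 66 Mb around the centromere and belong to no comparison of the report. Over 11 sequenced Mb this was 2.10 peaks per Mb (1.33 to 3.15), and their folds ran from 5.15 to 43.3 with a median of 10.3. Of tiled reads, 28.2% mapped back uniquely there. None of the 13 protein-coding genes of this interval had a promoter peak, against the background of 61.4% of all genes. There were 15 of the peaks below 44 Mb and 8 above 62 Mb.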

How the results depend on the processing

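Of 57 alternative values, 28 left a value within its limits, 29 moved it and none reversed a direction. Only the ratios of the short to the long arm had a direction that could reverse. Most of the values were single shares, lengths, densities or counts, for which the absence of a reversal says nothing. For a value without an interval the limit was a change by a factor of 1.5, which is wide. No paired analysis was possible because only a single culture was measured. The density ratio of the short to the long arm, 0.567, was 0.488 with a score above 200, 0.476 with arms cut 5 Mb further from the centromere, 0.522 in bins with at least 90% of tiles mapped, 0.844 in bins of 38 to 42% GC and 0.859 in bins of at least 42% GC, where the median fold ratio was 0.955. These GC bins were chosen after the data were seen and were not filtered for mappability. The promoter share of summits was 22.4% and 19.2% (short and long arm) with a score above 100, 31.1% and 24.1% above 200, 21.6% and 20.4% with promoters reaching 1 kb to either side, 30.8% and 29.5% with 2.5 kb, and 14.2% and 13.4% for protein-coding genes alone. The share of genes with a promoter peak was 67.1% and 73.8% with 1 kb to either side and 51.7% and 59.1% with the canonical start. With scores above 100 and 200 it was 57% and 56% on the short arm. On the long arm it was 63.7% and 59.8% with scores above 100 and 200, so the arms differed less than in the main setting. The longest stretch of 9p21 was 1972 kb and 1990 kb with those scores. Stretches without a peak took up 57.9% and 73.1% of 9p21 with those scores, compared with 50.4% in the main setting. Stretches of at least 100 kb took up 65.4% of it and stretches of at least 500 kb 28.2%. The density of 9p21 was 15.3 and 9.57 per Mb with those scores, and within 100 bp of the summit the AP-1 share was 26.7% on the short arm and 24.7% on the long arm. The cause of each change was not tested. The pileup limits what can be seen, since a site under 9 fragments is not listed, and intervals do not cover variation between cultures, which 1 library cannot show.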

Other observations

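CpG-rich protein-coding promoters without a peak numbered 13 on the short arm and 26 on the long arm. Some had a summit just outside the promoter window, such as QSOX2, a sulfhydryl oxidase gene, at 323 bp and S1PR3, a sphingosine phosphate receptor gene, at 158 bp. The farthest from any summit were DOCK8 on the short arm, at 171141 bp, and CACNA1B on the long arm, at 112343 bp.

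The 9 extra sequences of chromosome 9 in the reference held 0 of the 61 listed peaks that lay outside the primary chromosomes.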
